A study of Mus musculus with 12 samples.

Results

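The 6 genes described here encode secreted and cell-surface signals through which tissues address leukocytes: the chemokine Cxcl10, the cytokines Csf1 and Il18, the adhesion molecules Icam1 and Vcam1, and the checkpoint ligand Cd274 (PD-L1). They were picked by name from the genes that the authors listed as changed by a mixture of factors (the cocktail) in aggregates of mouse embryonic stem cells, so the difference between cocktail and control chose them and is given below as a description, which supports nothing. All 6 are among the 633 genes of the cocktail table, and 2 of them, Csf1 and Il18, are also among the 546 genes of the co-culture table.

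The study sequenced poly(A) RNA of 12 libraries in 4 groups of 3. Every aggregate came from the line mESC 129w2, was seeded on day 0 at 3000 cells per well, received BMP4 (2 ng/ml) on day 3, bFGF (25 ng/ml) with RA (1 µM) on day 4, and moved to new wells on day 5. The co-culture group was grown with mSMGs, an abbreviation left unexplained by the labels, from day 5 to day 7, and its controls were aggregates of day 7 without them. The cocktail group was cultured with the cocktail factor, whose content the sources used here do not give, and was set against 3 further day 7 aggregates. A single cell line was used, so the libraries share 1 genetic background. For the cocktail libraries no day of collection is labelled, and stage and cocktail therefore cannot be told apart. Nothing in the labels says whether replicates were separate cultures, and the errors below measure only the spread between libraries, which may be technical.

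Both tables were limited by the authors to selected genes, and levels are given here in FPKM (fragments scaled to transcript length and to library size), a unit that the co-culture table's header does not name and that is inferred for it. Sequencing depth was not analysed, so precision is judged by the spread of 3 libraries per group. Within groups the cocktail table's libraries correlated at 0.988 to 0.991 across genes on log2(FPKM + 1). Co-culture replicate 3 stood apart: it correlated at 0.965 with control 3, against 0.748 to 0.911 among the co-culture libraries. The cocktail table lists only genes selected as changed, and the co-culture table lists mostly genes that changed. The identity of the aggregates therefore could not be checked against their defining markers.

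Interferons act through transcription factors that bind GAS and ISRE elements in the promoters of their target genes. Inflammatory cytokines act through NF-κB, which binds κB elements, and many genes for leukocyte traffic carry sites for both routes. CXCL10 draws cells that carry the receptor CXCR3, CSF1 keeps macrophages alive through CSF1R, and IL-18 is made as a precursor that caspase-1 cleaves. ICAM1 and VCAM1 are ligands of leukocyte integrins, and PD-L1 restrains T cells through the receptor PD-1.

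The promoters of the genes were read for these elements because the 6 genes moved in 1 direction in the cocktail table. Of the 6 genes, 5 (all but Vcam1) have a promoter in the RefSeq table used (GRCm38.p6), and the 250 bases upstream of the annotated start were searched on both strands. The elements sought were 3: GAS spelled TTCNNNGAA, the ISRE core (GAAA, any 2 bases, GAAA), and the κB consensus. The GAS spelling occurs in 7.02% of all 32851 promoter windows of this length, the ISRE core in 2.98% and the κB consensus in 7.25%. The 3 windows with a match are printed 5′ to 3′ on the gene's strand, in lower case with the matches in capitals. They lie at chr5:92348890-92349139 (minus strand) for Cxcl10, at chr3:107760470-107760719 (minus strand) for Csf1 and at chr9:21015690-21015939 (plus strand) for Icam1.
Cxcl10: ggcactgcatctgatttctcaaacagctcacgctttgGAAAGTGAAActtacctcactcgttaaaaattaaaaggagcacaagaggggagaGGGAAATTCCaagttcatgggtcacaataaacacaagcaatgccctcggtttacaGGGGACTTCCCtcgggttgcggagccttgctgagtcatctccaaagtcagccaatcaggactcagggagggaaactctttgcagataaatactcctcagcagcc
Csf1: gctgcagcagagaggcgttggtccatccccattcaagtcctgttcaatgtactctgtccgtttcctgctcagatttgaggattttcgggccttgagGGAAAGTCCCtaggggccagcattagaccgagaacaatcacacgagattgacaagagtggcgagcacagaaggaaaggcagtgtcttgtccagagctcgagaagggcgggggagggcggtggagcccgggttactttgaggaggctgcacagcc
Icam1: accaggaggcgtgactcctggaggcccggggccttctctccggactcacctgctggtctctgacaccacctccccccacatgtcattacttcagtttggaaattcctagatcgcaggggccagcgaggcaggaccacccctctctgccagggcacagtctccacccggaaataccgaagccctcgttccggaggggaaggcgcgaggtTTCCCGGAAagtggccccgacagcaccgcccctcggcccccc
The Cxcl10 window holds the ISRE core as GAAAGTGAAA, from 213 to 204 bases upstream of the start. It also holds 3 κB matches: GGGAAATTCC at 159 to 150, and GGGGACTTCC at 104 to 95, which overlaps GGGACTTCCC at 103 to 94. The Csf1 window holds 1 κB match, GGAAAGTCCC, at 154 to 145. The Icam1 window holds 1 GAS match, TTCCCGGAA, at 42 to 34. The windows of Il18 and Cd274 hold none of these spellings. A match describes letters and does not show that a factor binds there.

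In the cocktail libraries all 6 genes stood higher than in the controls, from 3.83-fold for Il18 to 21.7-fold for Cxcl10 in mean FPKM, and for none of them did the groups overlap. Such a separation was common in this selected table: in 362 of 633 genes (57.2%) every cocktail library lay above every control. The table was fitted with limma on log2(FPKM + 1), over the 530 genes with a mean of at least 1 FPKM in one group or the other, a filter that all 6 genes passed, Il18, Vcam1 and Cd274 through the cocktail group alone. At an adjusted p of 0.05 this fit called every tested gene (100%), 314 of 530 higher (59.2%) and 216 lower (40.8%). The 6 genes are among the 314, and since this contrast chose them nothing is read from it. With quantile normalization of the listed genes, added after seeing the data, the split was 252 higher and 226 lower, and the difference of Csf1 went from 1.95 to 1.11, that of Icam1 from 2.06 to 1.29 and that of Cxcl10 from 3.61 to 2.91. In bulk RNA, fewer cells of a type and less RNA per cell cannot be told apart.

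**Figure D1:**
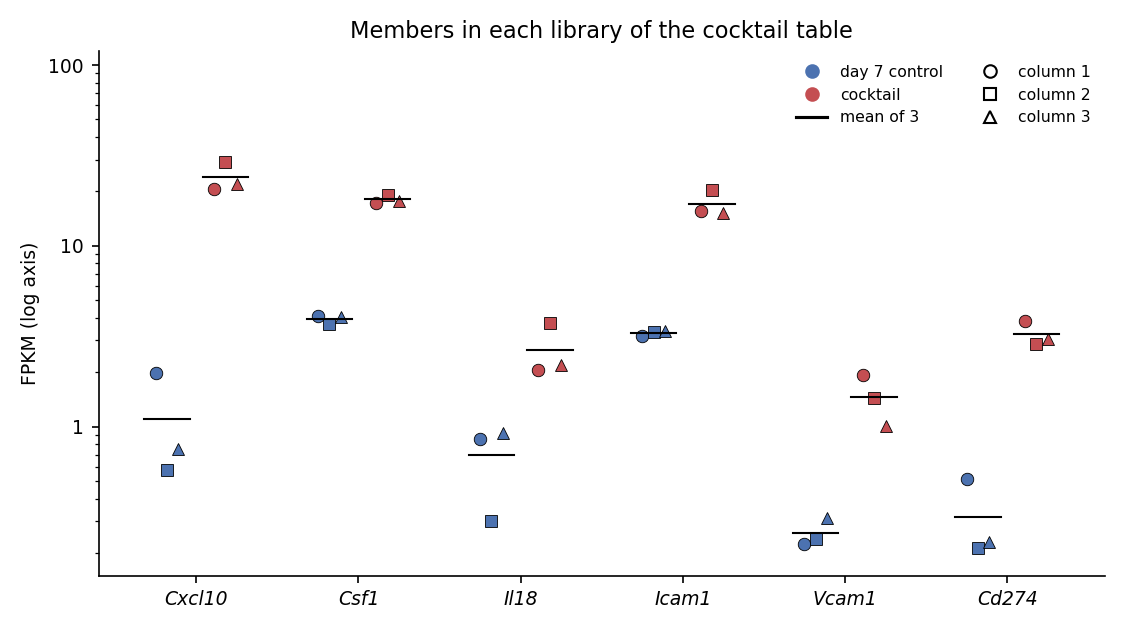
FPKM of the 6 genes (log axis) in the 3 control columns (blue) and the 3 cocktail columns (red), with the mean of each group as a line and the marker shape giving the column's number. In every gene the lowest cocktail library lies above the highest control, by 2.21-fold in Il18 and by 10.5-fold in Cxcl10.

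Cxcl10 (ENSMUSG00000034855, chromosome 5, 92346638 to 92348889, minus strand, GRCm38, GENCODE M21), the chemokine, was at 1.98, 0.578 and 0.753 FPKM in the controls and at 20.7, 29.1 and 22.1 FPKM with the cocktail. The first control column was the highest control and the second cocktail column the highest of all. The group means were 1.10 ± 0.764 and 24.0 ± 4.47 FPKM (SD, n = 3), a ratio of 21.7, and the fitted difference on log2(FPKM + 1) was 3.61 (SE 0.23). That ratio depended on the first control column, and without it the means differed 36.0-fold. The addition of 1 FPKM makes the fitted differences smaller than the ratios, most of all for low genes.

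Csf1 (ENSMUSG00000014599, chromosome 3, 107741048 to 107760469, minus strand), the macrophage growth factor, had the closest replicates of the 6 genes with the cocktail. It was at 4.07, 3.69 and 4.04 FPKM in the controls and at 17.3, 19.1 and 17.8 FPKM with the cocktail. The means were 3.93 ± 0.212 and 18.1 ± 0.920 FPKM (SD, n = 3), a ratio of 4.59. The fitted difference on log2(FPKM + 1) was 1.95 (SE 0.08).

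Il18 (ENSMUSG00000039217, chromosome 9, 50554827 to 50581840, plus strand), a cytokine of the IL-1 family, had the widest spread of the 6 genes with the cocktail, a coefficient of variation of 35.7%. It was at 0.858, 0.302 and 0.927 FPKM in the controls and at 2.05, 3.76 and 2.19 FPKM with the cocktail. The second control column was the lowest control and the second cocktail column the highest of the cocktail libraries. The means were 0.696 ± 0.343 and 2.67 ± 0.950 FPKM (SD, n = 3), a ratio of 3.83, and the fitted difference on log2(FPKM + 1) was 1.10 (SE 0.21).

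Icam1 (ENSMUSG00000037405, chromosome 9, 21015985 to 21028817, plus strand), the ligand of the integrin LFA-1, was at 3.17, 3.35 and 3.39 FPKM in the controls and at 15.5, 20.3 and 15.2 FPKM with the cocktail. Its controls were the closest of the 6 genes, with a coefficient of variation of 3.59%. The means were 3.30 ± 0.118 and 17.0 ± 2.84 FPKM (SD, n = 3), a ratio of 5.15. The fitted difference on log2(FPKM + 1) was 2.06 (SE 0.12).

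Vcam1 (ENSMUSG00000027962, chromosome 3, 116109949 to 116129688, minus strand), the ligand of the integrin VLA-4, had the lowest level of the 6 genes in each group. It was at 0.223, 0.239 and 0.314 FPKM in the controls and at 1.92, 1.43 and 1.00 FPKM with the cocktail. Its order among the cocktail columns was unlike that of Icam1, since here the first column was highest and the third lowest. The means were 0.259 ± 0.0483 and 1.45 ± 0.460 FPKM (SD, n = 3), a ratio of 5.62, and the fitted difference on log2(FPKM + 1) was 0.95 (SE 0.14).

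Cd274 (ENSMUSG00000016496, chromosome 19, 29367455 to 29388095, plus strand), the PD-1 ligand, was at 0.511, 0.214 and 0.230 FPKM in the controls and at 3.83, 2.85 and 3.05 FPKM with the cocktail. As in Cxcl10, the first control column was the highest control. The means were 0.318 ± 0.167 and 3.24 ± 0.517 FPKM (SD, n = 3), a ratio of 10.2, and the fitted difference on log2(FPKM + 1) was 1.69 (SE 0.13).

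By level, which FPKM allows to be compared between genes, the controls ran in the order Csf1, Icam1, Cxcl10, Il18, Cd274 and Vcam1. The libraries of Csf1 and Icam1 did not overlap there, nor did those of Icam1 and Cxcl10, but each of the later neighbours overlapped. With the cocktail Cxcl10 moved to the top, and its lowest library (20.7 FPKM) lay above the highest of Csf1 (19.1 FPKM). The order went on with Csf1 and Icam1, whose libraries overlapped, then Cd274 and Il18, which also overlapped, and Vcam1. The second cocktail column was the highest for Cxcl10, Csf1, Il18 and Icam1, and the first for Vcam1 and Cd274.

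The fitted differences of the 6 genes had a median of 1.82 on log2(FPKM + 1), beside 0.79 over the 530 tested genes, of which 27 were listed at 0 in every control. Ranked by the ratio of mean FPKM among all 633 genes, those listed at 0 in the controls first, Cxcl10 stood at place 85, Cd274 at 111, Vcam1 at 141, Icam1 at 153, Csf1 at 159 and Il18 at 179. In the authors' deposited table no listed gene has an FDR above 0.0099 or a log2 fold change nearer to 0 than 1.002. Of the 6 genes Il18 is nearest to both limits there, with an FDR of 0.000192 and a log2 fold change of 1.95 in the authors' deposited table. The next is Vcam1 by FDR (1.06e-13) and Csf1 by log2 fold change (2.17), again in the authors' deposited table. No gene of this set lies just outside the limits, since all 6 were taken from the listed genes.

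**Figure D2:**
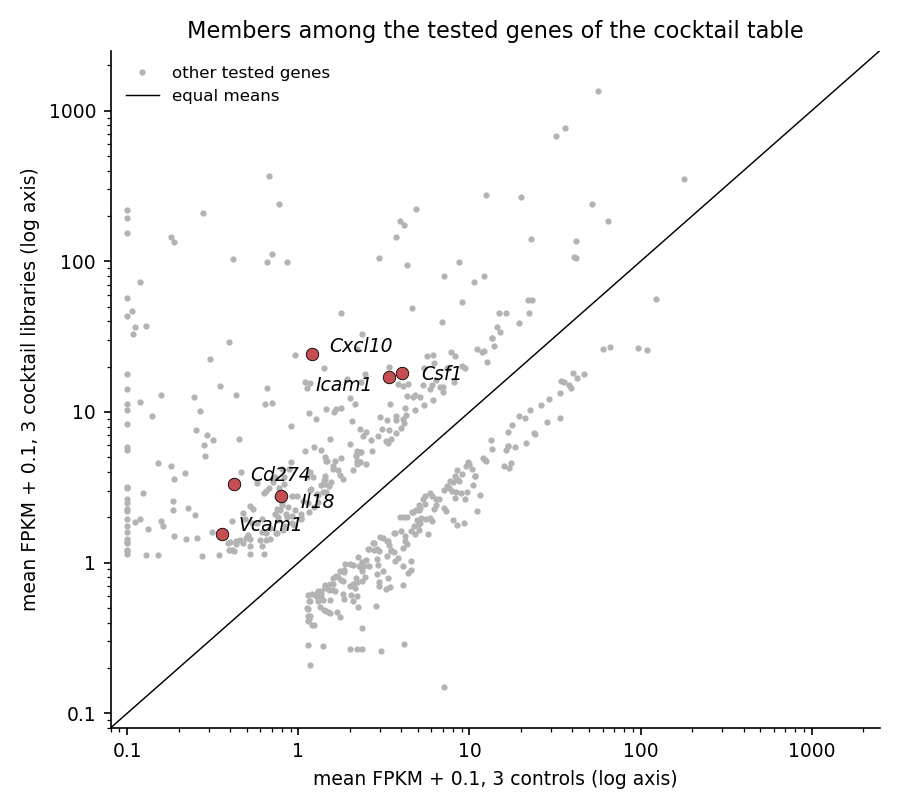
Mean FPKM + 0.1 of each of the 530 tested genes in the 3 controls (horizontal, log axis) and the 3 cocktail libraries (vertical, log axis), with the 6 genes in red and a line of equal means. The empty band along the line is left by the authors' limit on the log2 fold change. Csf1 and Icam1 lie beside each other, and Cxcl10 lies farthest above the line among the 6 genes.

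The genes with the most similar profile were found by the Euclidean distance of log2(FPKM + 1) over the 6 cocktail-table libraries, among 593 other named genes. Csf1 and Icam1 were each other's nearest gene, at a distance of 0.452, and Irf9, a subunit of the ISRE-binding complex, came next to both (0.516 and 0.584). Nearest to Cxcl10 were Tap2, a subunit of the peptide transporter, at 0.635 and Il18bp, the secreted inhibitor of IL-18, at 0.882. Nearest to Il18 were Itpka, an inositol phosphate kinase, at 0.407 and the chemokine Cxcl12 at 0.539. Nearest to Cd274 were the protocadherin Fat4 at 0.431 and the RNA sensor Ifih1 at 0.596, and nearest to Vcam1 were Vxn at 0.423 and Oas1b at 0.470.

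Around the 6 genes, 11 lists of related genes were examined, which hold 197 further genes. Of these, 20 are in the cocktail table, of which 18 were tested, 15 higher and 3 lower in the limma fit (59.2% and 40.8% over all tested genes), with a median difference of 1.45 on log2(FPKM + 1) beside 0.79 over all tested genes. Of these, Cxcl11, Cxcl12, Cxcl14, Flt3l, Tnfrsf14, Cd40, H2-T23, Socs1 and Tnfaip2 passed the filter through the cocktail group alone and so had to be higher. Since every tested gene was called, these counts describe which relatives the authors listed, and genes outside the table were not analysed here.

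Among 33 chemokines 5 were listed, 4 higher and 1 lower, beside 59.2% and 40.8% over all tested genes. Of the higher ones Cxcl11, Cxcl12 and Cxcl14 passed the filter through the cocktail group alone and so had to be higher. Cxcl11, a second CXCR3 ligand, was at 0.0230, 0.106 and 0.0227 FPKM in the controls and at 3.46, 5.44 and 4.49 FPKM with the cocktail, a difference of 2.36 on log2(FPKM + 1) (SE 0.14) and a ratio of means of 88.0. Cxcl14 went from 0.323 ± 0.128 to 1.09 ± 0.470 FPKM and Cxcl12, the CXCR4 ligand, from 0.961 ± 0.261 to 2.46 ± 0.538 FPKM (SD, n = 3). Cx3cl1, a membrane-bound chemokine, was the lower one: it was at 65.1, 54.1 and 61.7 FPKM in the controls and at 28.5, 29.9 and 20.0 FPKM with the cocktail, a difference of -1.19 (SE 0.15). Cx3cl1 was thus the most abundant listed chemokine in the controls, while with the cocktail its libraries overlapped those of Cxcl10. Of 22 chemokine receptors, 0 were found among the listed genes.

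In the list of growth factors for myeloid and stem cells with their receptors, 3 of 14 genes were listed. Of these 2 were higher and 1 lower, beside 59.2% and 40.8% over all tested genes. Beside Csf1, Flt3l, the ligand of FLT3, was at 0, 0.128 and 0.139 FPKM in the controls and at 1.56, 1.32 and 1.30 FPKM with the cocktail, a difference of 1.14 (SE 0.09). Kitl, the ligand of KIT, differed the other way, from 10.4 ± 0.305 to 3.16 ± 0.0828 FPKM (SD, n = 3), a difference of -1.45 (SE 0.08). Flt3l passed the filter through the cocktail group alone and so had to be higher. Csf1r, the receptor of CSF1, was not among the listed genes.

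Of 25 genes of the IL-1 family and the inflammasome, Il18 and Il18bp were listed. Il18bp was at 1.37, 1.20 and 1.38 FPKM in the controls and at 18.3, 22.3 and 18.1 FPKM with the cocktail, a difference of 3.14 on log2(FPKM + 1) (SE 0.11). The gene of the inhibitor was thus above that of the cytokine in every library of the table. Of 20 other cytokines 1 was listed, Tgfb1, which was not tested, at 0.313 ± 0.0553 and 0.861 ± 0.374 FPKM (SD, n = 3).

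Of 20 adhesion molecules 3 were listed, all higher, beside 59.2% of all tested genes. Beside Icam1 and Vcam1 this was Jam3, a junctional adhesion molecule, at 66.3, 66.0 and 61.8 FPKM in the controls and at 181.7, 185.7 and 190.1 FPKM with the cocktail, a difference of 1.51 (SE 0.06). Vcam1 passed the filter through the cocktail group alone and so had to be higher. Of 8 leukocyte integrin genes, 0 were found among the listed genes.

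Of 24 checkpoint and co-stimulatory ligands 4 were listed, all higher, beside 59.2% of all tested genes. All 4 passed the filter through the cocktail group alone and so had to be higher. Beside Cd274 these were Tnfrsf14, the ligand of BTLA, from 0.0577 ± 0.0538 to 1.78 ± 0.257 FPKM, Cd40, a co-stimulatory receptor, from 0.419 ± 0.102 to 1.19 ± 0.235 FPKM, and H2-T23 from 0.248 ± 0.156 to 14.7 ± 3.76 FPKM (SD, n = 3). H2-T23 encodes the class I molecule Qa-1, which NKG2A reads. It belongs to a family of similar genes, so its share of reads is uncertain. Of 10 checkpoint receptors, 0 were found among the genes of the cocktail table.

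A pair of lists covers the interferon and NF-κB routes introduced above. Whether either route acts on the genes described here was not tested. Of 11 genes of the interferon axis 5 were listed, and the 4 tested were all higher, beside 59.2% of all tested genes. Of these Socs1 passed the filter through the cocktail group alone and so had to be higher. Irf1, a transcription factor that interferons induce, went from 3.62 ± 0.509 to 145.5 ± 2.81 FPKM (SD, n = 3). Socs1, a feedback inhibitor, differed by 3.30 on log2(FPKM + 1) (SE 0.12), Irf9 by 2.28 (SE 0.13) and Stat2 by 1.91 (SE 0.09). Ciita, the activator of class II genes, was listed at 0 in all controls and at 0.252, 0.213 and 0.355 FPKM with the cocktail, and was not tested. Of 16 NF-κB regulators and targets 3 were listed, beside 59.2% higher and 40.8% lower over all tested genes. Tnfaip2 (1.51, SE 0.12) and Bcl3 (0.93, SE 0.20) were higher, and Tnfaip3, the inhibitor A20, was lower (-0.69, SE 0.11). Tnfaip2 passed the filter through the cocktail group alone and so had to be higher.

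**Figure D3:**
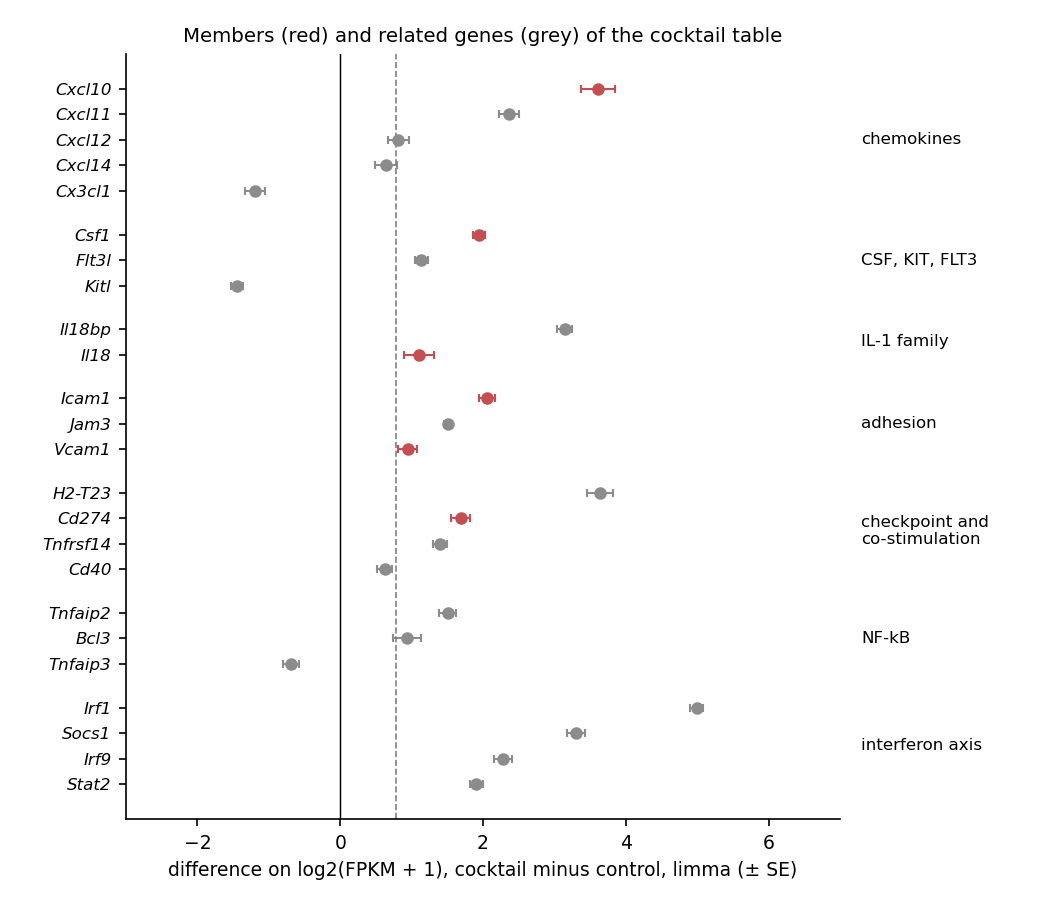
Fitted difference on log2(FPKM + 1), cocktail minus control (limma, ± SE, 3 libraries per group), for the 6 genes (red) and the 18 related genes tested (grey), grouped by list. Zero is the solid line and the median of all tested genes (0.79) the dashed one. Cx3cl1, Kitl and Tnfaip3 lie left of zero and the other genes right of it.

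Cells that carry several of these genes in other tissues were looked for by their markers. Of 17 macrophage markers and of 12 lymphocyte markers, 0 were found among the listed genes of either table. Both tables hold selected genes, so a marker missing from them may still be expressed, and absence of these cells was not tested. Of 14 endothelial markers the cocktail table lists Kdr and Cldn5, both lower, whose summed level was 6.23 to 6.81 FPKM in the controls and 1.49 to 2.33 FPKM with the cocktail. Of 10 mesenchymal markers it lists Pdgfra and Twist1, both lower, and Col3a1, below 1 FPKM and not tested, with sums of 21.2 to 24.2 and 5.95 to 7.34 FPKM. Of 10 epithelial markers, 0 were found in it. The part of cell composition in the levels of the 6 genes was not tested.

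The co-culture table holds Csf1 and Il18, and there they differed in opposite directions. Most of its genes appear to have been selected on replicate pairs 1 and 2, since 390 of its 546 genes (71.4%) were at least doubled in both pairs and 109 (20%) were at least halved in both. The labels do not state the rule. Csf1 is one of the former and Il18 one of the latter, so pairs 1 and 2 probably describe the selection, and pair 3 alone would be outside it.

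Csf1 was at 1.74, 1.08 and 2.08 FPKM in controls 1, 2 and 3 and at 5.82, 14.5 and 2.33 FPKM in co-culture replicates 1, 2 and 3. Replicate 2 was the highest, and replicate 3 lay close to its own control. The ratio of co-culture to control was 3.35 in pair 1, 13.4 in pair 2 and 1.12 in pair 3. The groups did not overlap, as in 165 of the 546 genes (30.2%) in which every co-culture library lay above every control. On log2(value + 1) the difference in pair 3 was 0.11, beside a median of 0.21 over the 390 genes doubled in pairs 1 and 2.

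Il18 was at 1.69, 2.08 and 1.35 FPKM in controls 1, 2 and 3 and at 0.382, 0.306 and 1.28 FPKM in co-culture replicates 1, 2 and 3. Here too replicate 3 lay close to its control. The ratio of control to co-culture was 4.43 in pair 1, 6.81 in pair 2 and 1.05 in pair 3, so all 3 pairs were lower in co-culture and the third barely. Every co-culture library lay below every control, as in 25 of the 546 genes (4.58%). On log2(value + 1) the difference in pair 3 was -0.04, beside a median of 0.01 over the 109 genes halved in pairs 1 and 2.

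The limma fit over the 425 genes tested gave Csf1 a difference of 1.44 on log2(value + 1) (SE 0.62) and Il18 one of -0.75 (SE 0.40). Neither passed (limma adjusted p = 0.209 for both), nor did any other gene (0 of 425, 0%, although 86 had an unadjusted p under 0.05). A block for the replicate number let 39 of 425 genes (9.18%) pass in limma, without Csf1 (limma adjusted p = 0.0692) and Il18 (0.164). Without co-culture replicate 3, 330 of 449 genes passed, and so did Csf1 (1.98, SE 0.48, limma adjusted p = 0.0178) and Il18 (-1.003, SE 0.27, limma adjusted p = 0.0181). That fit leaves out the 1 co-culture library on which the genes appear not to have been selected, so nothing is read from its calls.

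**Figure D4:**
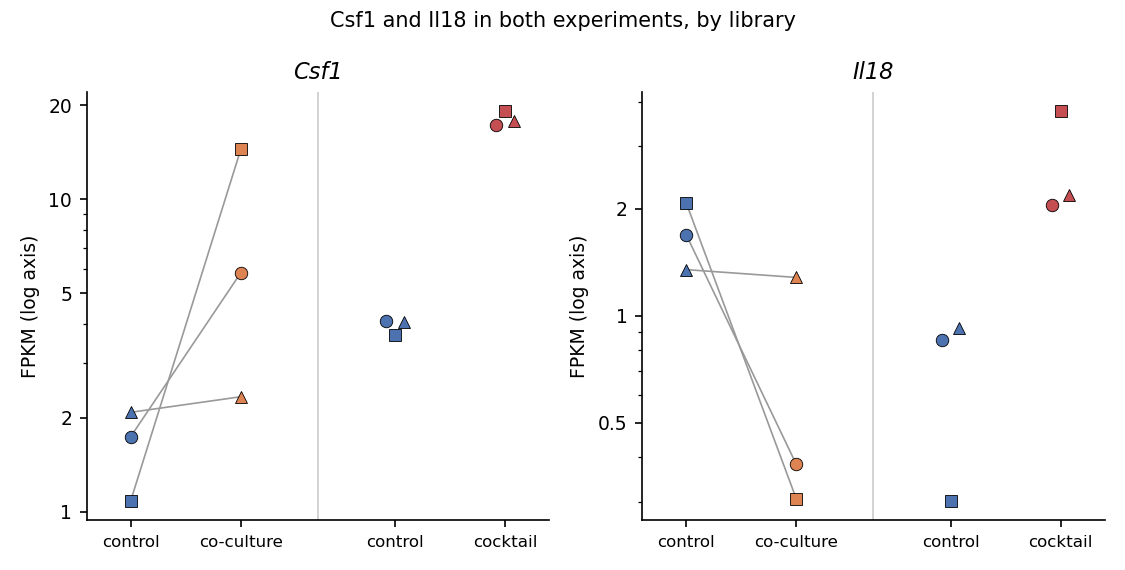
Csf1 and Il18 in every library of both experiments (FPKM, log axis), with grey lines joining co-culture libraries to the control of the same number and marker shapes giving the number. The tables were normalized separately, so levels are to be compared within each side of the vertical line. Il18 was lower with co-culture in each pair and higher in each cocktail library, and Csf1 was higher in both experiments.

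Of the 197 related genes, 11 are in the co-culture table, of which 8 had a mean of at least 1 FPKM in either group and were tested. None passed without the block. With it 1 of the 8 passed, beside 9.18% of all tested genes: Cxcl1 (limma adjusted p = 0.0355), which met the filter through co-culture alone and whose pairs 1 and 2 appear to have served to select it, so nothing is read from this call. Cxcl1, a chemokine for neutrophils, was at 0.533, 0.146 and 0 FPKM in controls 1, 2 and 3 and at 2.07, 4.62 and 0.729 FPKM in co-culture. Ccl20, the CCR6 ligand, was near 0 in the controls (0.0585 to 0.113 FPKM) and at 2.52, 2.67 and 0.124 FPKM in co-culture. Cxcl12 was at 1.50, 2.50 and 2.11 FPKM in the controls and at 6.96, 8.20 and 4.35 FPKM, with a ratio of 2.06 in pair 3.

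The other related genes were low or spread widely. Lif, a cytokine of the IL-6 family, was at 0.101 to 0.227 FPKM in the controls and at 1.06, 2.57 and 0.412 FPKM in co-culture. Cd80, a co-stimulatory ligand, was at 0.0959 to 0.0978 FPKM and at 0.590, 1.45 and 0.711 FPKM, and its mean in each group was under 1. Socs1 was at 0.393 to 1.01 FPKM and at 1.28, 5.66 and 1.07 FPKM. Of the NF-κB list Nfkb2 and Nfkbiz were listed, at 6.98 ± 2.34 and 2.52 ± 1.09 FPKM in the controls and at 14.6 ± 6.19 and 6.62 ± 2.82 FPKM in co-culture (SD, n = 3). The adhesion gene Bcam was at 2.56 to 16.8 FPKM and at 35.2, 51.0 and 6.98 FPKM, so its groups overlapped. The checkpoint receptor gene Btla and Gsdmd, the pore former downstream of caspase-1, did not exceed 1.1 FPKM in any library. Gsdmd was lower in pairs 1 and 2 and higher in pair 3.

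**Figure D5:**
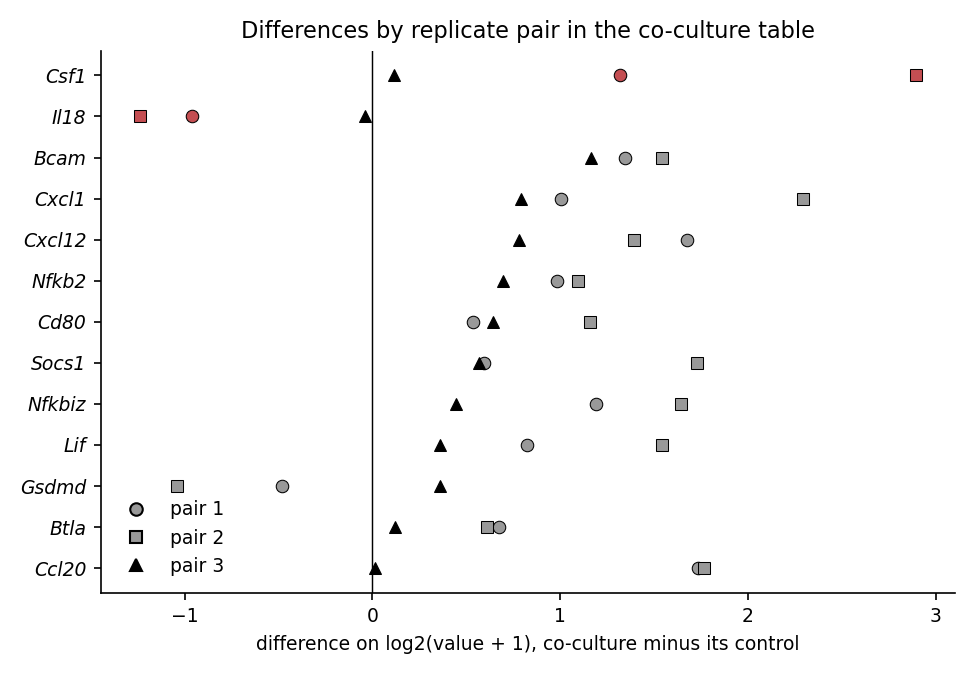
Difference on log2(value + 1) between each co-culture library and the control of the same number, for Csf1 and Il18 (red) and the 11 related genes of the co-culture table (grey), with pair 3 in black. Pairs 1 and 2 appear to have served to select the genes. In pair 3 Csf1 lies at 0.11 and Il18 at -0.04, while Bcam lies at 1.16.

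Among the 3 co-culture libraries, the summed markers of some other cell types had the same order as Csf1. Replicate 3 lay close to its control, so a listed gene that rose tends to be lowest there and one that fell highest. Most related genes above shared the order of Csf1, though not Nfkbiz, Cd80 and Gsdmd, so nothing is read from it. In the controls the endothelial and epithelial sums were highest in control 1 and lowest in control 3, while Csf1 was highest in control 3. The table lists 4 of 14 endothelial markers (Kdr, Flt1, Tek and Eng), which summed to 0.995 to 4.05 FPKM in the controls and to 10.7, 43.0 and 2.08 FPKM in co-culture replicates 1, 2 and 3. It lists 2 of 10 epithelial markers (Krt19 and Cldn7), which summed to 6.60 to 7.16 and to 27.6, 155.2 and 11.4 FPKM. Nearly all of that sum was Krt19, at 26.2, 154.3 and 11.2 FPKM in co-culture. Cldn7 had another order, at 1.42, 0.905 and 0.239 FPKM, and was below its control in pair 3. Of 10 neural progenitor markers it lists 2 (Fabp7 and Hes5), which summed to 154.6 to 273.6 and to 49.8, 25.8 and 269.2 FPKM, and among the 3 co-culture libraries alone their order was that of Il18. Of 10 mesenchymal markers it lists Col3a1, at 0.0782 to 0.302 FPKM and at 1.10, 1.49 and 0.0298 FPKM. Whether these cells, or RNA of the mSMGs, contributed to the levels of Csf1 and Il18 was not tested.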

How the data were processed

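Per the submitters' processing notes, HISAT2 and GRCm38 were used; for counter, annotation and comparison tool, nothing is stated in the sources used here. Per the file headers, the authors deposited FPKM per library for the cocktail experiment, with their log2 fold change and FDR (an adjusted p-value). The co-culture header names no unit, and its deposited values are taken as FPKM from their decimals and size. Columns of the cocktail table name a group but no sample. In all, 30 per-library columns in the deposited files were not used. Symbols came from GENCODE M21 (594 of 633 and 546 of 546 genes matched).

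Both tables were fitted with limma 3.58.1 (R 4.3.3) with a trend on log2(value + 1), for genes whose mean reached 1 in one group or the other, and p-values were adjusted by Benjamini-Hochberg over all genes tested. A count test had been planned for the cocktail table. Neither its 6 count columns nor its 6 FPKM columns name a sample, and by choice 1 measure was kept, FPKM. The count test was therefore not run. The fit was tested on simulated data in which most genes were unchanged and all levels were raised. The deposited tables hold selected genes, some of them low, so that test does not show how the fit performs on them. Same-numbered co-culture libraries deviated together from their group means (correlations 0.606, 0.143 and 0.256 over 425 genes, all over the limit of 0.1). Between other numbers the correlations were at most 0.0419. Deviations cancel within a group, so positive values for the same number push those between other numbers down. The number was taken as a pair on this hint, which comes from selected genes rather than the labels. The genes, the 18 lists (280 genes) and the tests were chosen with earlier results of these data known. Of the related genes, 1 was taken out of its list after the fits and is not reported here; the fits over all genes keep it. Genes were named if they are among the 6, if a related list holds them, or if they are 1 of the 2 nearest profiles.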

Additional observations from a re-analysis of the deposited data

Results flagged for a closer look

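Il18 stood out because its direction differed between the experiments. On the log2(value + 1) scale it was 1.10 higher with the cocktail (SE 0.21, all 3 cocktail libraries above all controls) and lower with co-culture (-0.75, SE 0.40, lower in 3 of 3 pairs). The difference between the experiments was not tested, and the tables were normalized separately. The cocktail table lists only genes selected on its libraries, and the co-culture table appears to list mostly such genes. Pair 3 of the co-culture differed by -0.04 only.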

How the results depend on the processing

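In the cocktail experiment, which chose the genes, all 6 kept their direction under the 9 alternatives run (log2(FPKM + 0.1), each library left out in turn and, added after seeing the data, no filter and quantile normalization). Count-based alternatives (TMM, sum of counts, DESeq2, a count filter, edgeR) were not run. With log2(FPKM + 0.1) Cxcl10 went from 3.61 to 4.48, Csf1 from 1.95 to 2.17, Il18 from 1.10 to 1.86, Icam1 from 2.06 to 2.32, Vcam1 from 0.95 to 2.08 and Cd274 from 1.69 to 3.06; in co-culture the same pseudocount moved Il18 from -0.75 to -1.46 and Csf1 from 1.44 to 1.82, with no call changed. Quantile normalization moved the median of all tested genes from 0.79 to 0.26. Leaving out 1 library gave 526 to 532 called genes, 3.44 to 3.89 for Cxcl10, 1.91 to 1.98 for Csf1, 0.90 to 1.22 for Il18, 1.93 to 2.13 for Icam1, 0.81 to 1.08 for Vcam1 and 1.59 to 1.79 for Cd274. In co-culture it gave 0 to 330 called genes, 0.88 to 1.98 for Csf1 and -1.003 to -0.60 for Il18. Without co-culture replicate 3, 330 genes passed, among them Csf1 (1.98) and Il18 (-1.003). Left out there is the 1 co-culture library on which the genes appear not to have been selected, so nothing is read from these calls. Without control replicate 1, 1 gene passed. With the replicate block 39 genes passed, and the calls of Csf1 (1.44) and Il18 (-0.75) did not change. Quantile normalization of the co-culture table moved its median from 0.83 to 0.23, Csf1 to 0.71 and Il18 to -1.12.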
